A study of Mus musculus with 24 samples.

Results

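The comparison described here set mouse pancreatic cancer cells that made p53 with a mutated second transactivation domain (TAD2m) against the same cells carrying an empty vector (Vector). It used 4 of the 24 RNA-seq libraries of the series, 2 TAD2m and 2 Vector, and 15075 of the 55401 annotated genes had enough reads to be tested. The cells were KPnull cells, a line of pancreatic ductal adenocarcinoma (PDAC) without p53 into which a doxycycline-inducible construct had been placed. Per the labels' growth protocol, all groups used here, Vector included, received doxycycline at 1 µg/ml for 48 hours before harvest. They were grown in DMEM with serum on collagen-coated plates. The series design also mentions untreated cells, and all KPnull libraries were taken as treated. The other KPnull groups, with 2 libraries each, carried wild-type p53 (p53WT), p53 mutated in the first transactivation domain (TAD1m) or p53 mutated in both domains (TAD12m). They entered the estimate of the spread, and each was also set against TAD2m directly. The labels do not say which residues were changed, whether the cells were 1 clone, or that replicate libraries came from separate cultures, so the p-values reflect only how far these libraries vary, and part of that may be technical.

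p53, encoded by Trp53, is a transcription factor that binds DNA as a tetramer and switches on genes of cell-cycle arrest, apoptosis, DNA repair and metabolism. Its amino terminus holds 2 transactivation domains, TAD1 and TAD2, which contact the transcription machinery. TAD1 also forms the main docking site of Mdm2, the ubiquitin ligase that p53 itself induces and that limits p53 protein. Loss of p53 is common in pancreatic cancer, where it accompanies the move from a preinvasive lesion to a carcinoma.

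The TAD2m libraries held 14687235 and 13657592 counts, and the Vector libraries held 19431249.5 and 15078879.5 counts. Values are given below as CPM, counts relative to the scaled library size, replicate 1 first. Mitochondrial transcripts took 3.03% and 3.09% of the counts in the TAD2m libraries, against 2.36% and 2.24% in the Vector libraries. The 10 most abundant genes took 5.85% and 5.78% in TAD2m, against 4.49% and 4.25% in Vector. Replicates were compared directly over the 10729 genes with a mean of at least 5 CPM over all KPnull groups. Of these, 95.2% lay within 1.2-fold of each other in TAD2m and 87.6% in Vector. The 9 epithelial markers of PDAC summed to between 8606 and 8937 CPM in TAD2m, against 6099 to 6534 CPM in Vector. Krt7, Krt8, Krt18, Krt19 and Muc1 were higher in both TAD2m libraries than in either Vector library. Cdh1 went the other way, with 1022 and 1030 CPM in TAD2m, against 1287 and 1271 CPM in Vector. Epcam and Cldn4 stayed under 1 CPM in all 4 libraries, and Sox9 had 0.831 and 0.823 CPM in TAD2m, against 1.02 and 1.44 CPM in Vector. All 12 fibroblast markers were under 1 CPM, and 7 of them, among them Col1a2, Col3a1 and Dcn, had no read. Of 20 immune markers, 17 were under 1 CPM and 6 had no read. The sum of the immune markers was 188 to 189 CPM in TAD2m and 112 CPM in both Vector libraries, most of it Cd14, with 156 and 160 CPM in TAD2m, against 94.1 and 92.3 CPM in Vector. Endothelial markers summed to 6.66 to 6.72 CPM in TAD2m and 6.25 to 8.05 CPM in Vector, with 9 of 10 under 1 CPM. Acinar and endocrine markers summed to 39.1 to 40.2 CPM in TAD2m and 47.5 to 52.0 CPM in Vector, with 17 of 20 under 1 CPM and Pdx1 the main one above.

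Trp53 itself (chr11:69580359-69591873, plus strand, mm10) checked the labels only as far as p53 against Vector. Its level cannot identify the p53 form, and reads at the changed residues were not examined. Its level was 530 and 525 CPM in the TAD2m libraries, against 6.12 and 4.54 CPM in the Vector libraries. The groups did not overlap, and the log2 change was 6.60 ± 0.09 (standard error of the fit, as with every ± below). The other p53 forms reached 649 and 686 CPM in p53WT, 622 and 654 CPM in TAD1m, and 552 and 580 CPM in TAD12m. These are bulk libraries: a change in every cell and a change in the share of cells that respond cannot be told apart. Trp53-ps, a processed copy of the gene, had 9.29 and 10.5 CPM in TAD2m and no read in Vector, and the counting could have split reads between the copies.

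**Figure D1:**
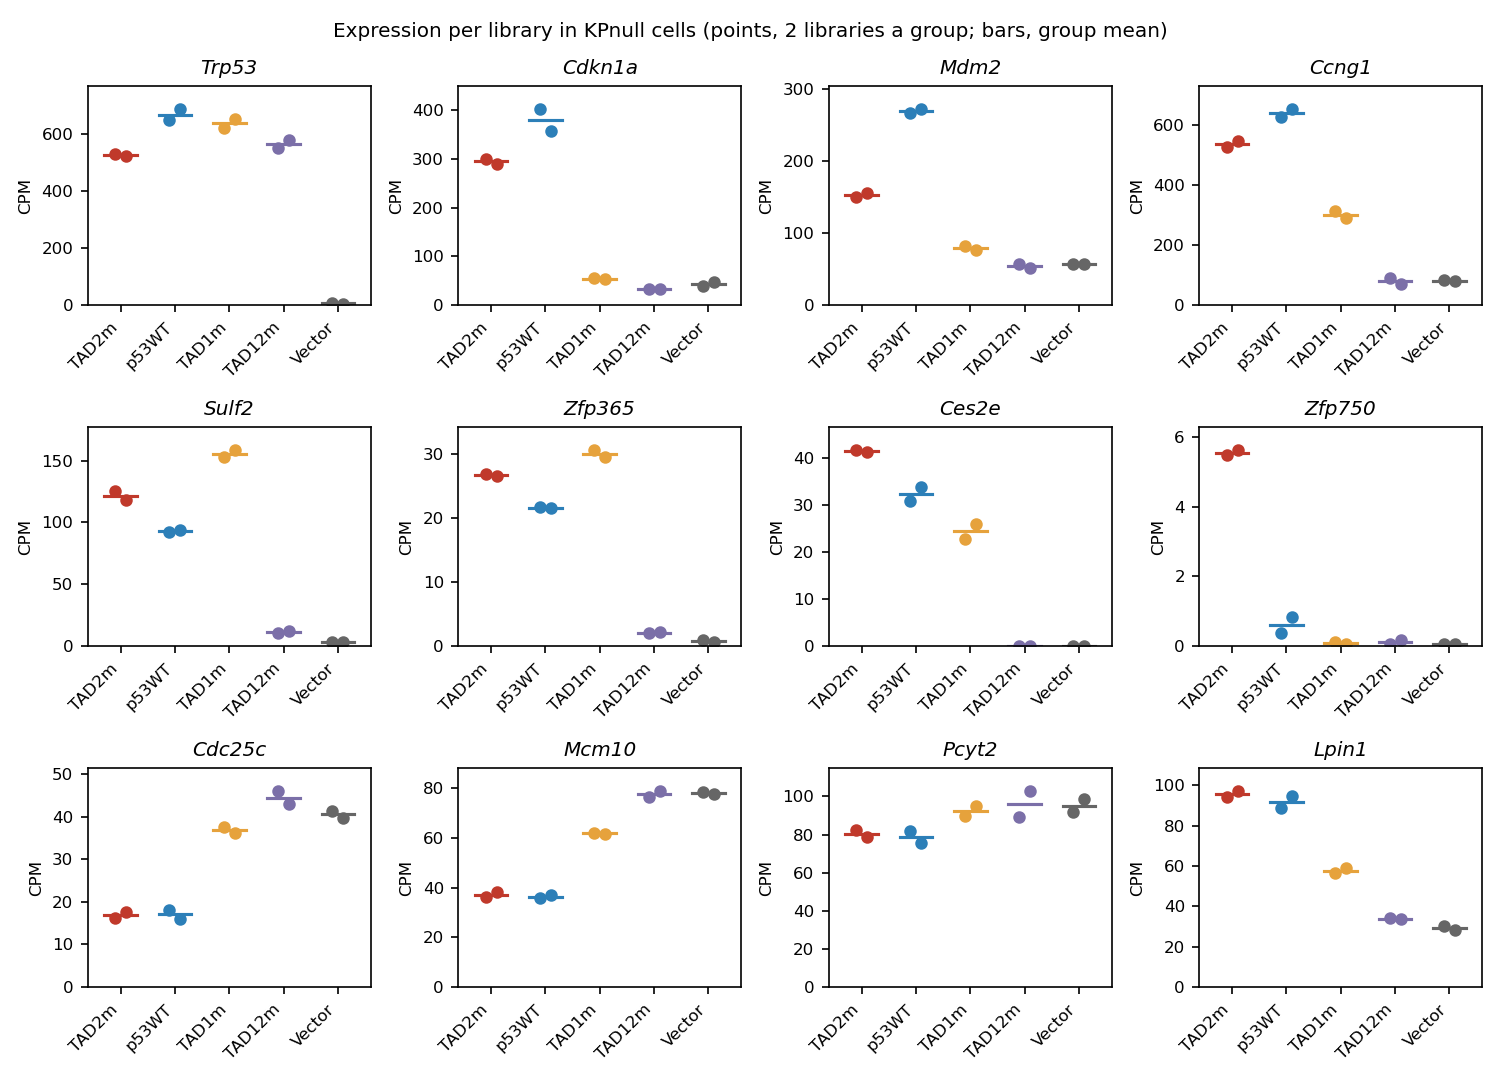
Expression of 12 genes in each KPnull library, in CPM on linear axes from 0; points are libraries (2 a group) and bars group means. Trp53 was at 525 CPM or above in every p53 group and under 7 CPM in Vector, Cdkn1a and Mdm2 were high in TAD2m and p53WT, and Zfp750 was above 5 CPM in TAD2m only.

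Against Vector, 7409 genes were called at an adjusted p under 0.05 (edgeR's quasi-likelihood test with Benjamini-Hochberg adjustment over all genes tested), which is 49.1% of those tested. Of these, 3758 were higher with TAD2m (24.9%) and 3651 were lower (24.2%). The directions were near even in number but not in size. At least 2-fold higher were 1104 genes (7.32%), against 372 genes that were at least 2-fold lower (2.47%). At least 8-fold higher were 140 genes and at least 8-fold lower were 5. The median log2 change over all genes tested was -0.01, and 90% of genes lay between -0.84 and 1.32. Because so many genes passed the test, each count over a gene group below has to be read against these shares of 24.9% higher and 24.2% lower.

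**Figure D2:**
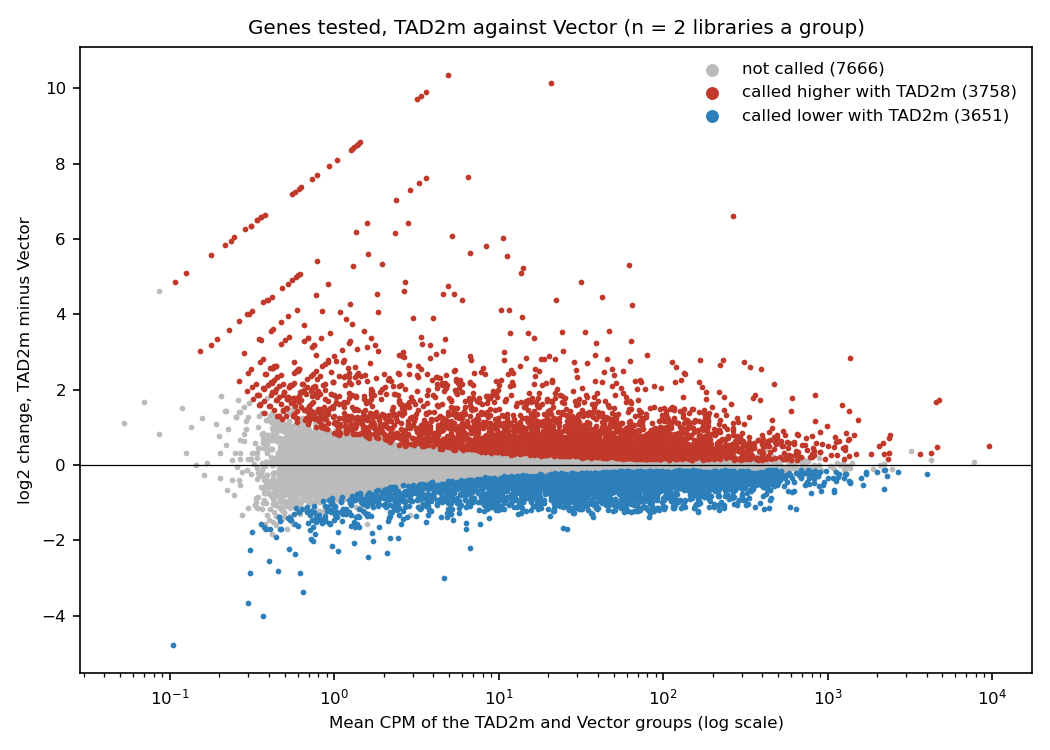
Log2 change, TAD2m minus Vector, of all 15075 genes tested against their mean level in both groups (CPM, log axis); red points were called higher (3758), blue points lower (3651) and grey points were not called. The largest changes were increases, and the decreases mostly stayed above -2; the diagonal streaks at the upper left are genes with few or no reads in Vector.

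The p53 target genes were described in 5 lists by role. Among regulators of p53 itself, 5 of 9 tested members were higher, none was lower, and the median log2 change was 0.54. Cdkn1a, which encodes the cyclin-dependent kinase inhibitor p21 (chr17:29093781-29100727), had 299 and 290 CPM in TAD2m, against 38.7 and 47.5 CPM in Vector. That was a log2 change of 2.78 ± 0.08, with adjusted p = 6.9e-13 by edgeR. Of its exons, 12.6% overlap a gene on the opposite strand, and the reads were counted without regard to strand. Mdm2 (chr10:117688875-117710758) had 150 and 156 CPM in TAD2m and 56.4 and 56.6 CPM in Vector, a change of 1.44 ± 0.07. The groups overlapped for neither gene. The same held for all 7409 genes called, so the lack of overlap adds nothing to a call. Ccng1, which encodes cyclin G1, a partner of a phosphatase that acts on Mdm2, had 526 and 547 CPM in TAD2m and 83.0 and 78.5 CPM in Vector. Trp53inp1, a stress protein that promotes p53 phosphorylation and autophagy, had 119 and 125 CPM in TAD2m and 6.33 and 6.51 CPM in Vector. Zmat3, an RNA-binding regulator of splicing, rose by 2.06 ± 0.06 on the log2 scale, and Pml, the scaffold of PML nuclear bodies, by 0.54 ± 0.07. Mdm4, Ppm1d, Rchy1 and Cop1, further negative regulators of p53, were not called, with log2 changes between -0.13 and -0.05.

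Of 14 arrest genes tested, 10 were higher and 1 was lower (median 0.65). Zfp365, which encodes a protein of genome stability, had 26.9 and 26.6 CPM in TAD2m, against 0.92 and 0.59 CPM in Vector. Btg2, an antiproliferative cofactor of mRNA deadenylation, rose by 2.23 ± 0.08. Psrc1 rose by 1.33 ± 0.08 and the kinase gene Plk2 by 1.30 ± 0.05. Gadd45b, a stress sensor, had 35.8 and 37.0 CPM in TAD2m and 17.3 and 22.4 CPM in Vector. The member that fell was Ckap2, a spindle protein whose own level peaks in mitosis, at -0.84. Sfn, the 14-3-3 sigma gene known as an arrest target in human cells, was not called (0.03 ± 0.66). Its level was too low to tell a change, with a mean of 0.323 CPM in TAD2m and 0.325 CPM in Vector.

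Among 16 apoptosis genes, 12 were higher and none was lower (median 0.77). Fas, the death receptor, had 11.3 and 11.6 CPM in TAD2m, against 0.56 and 0.53 CPM in Vector, a change of 4.37 ± 0.22. Eda2r, another receptor of the tumour necrosis factor family, had 7.55 and 5.99 CPM in TAD2m and no read in either Vector library, which makes it at least 78.9-fold higher when both Vector libraries together are set to 3 counts. The smaller increases were those of Phlda3, an inhibitor of Akt (1.70 ± 0.10), Apaf1, the core of the apoptosome (1.21 ± 0.07), Tnfrsf10b, the TRAIL receptor (1.14 ± 0.06), Pidd1 (1.08 ± 0.10) and Perp (0.86 ± 0.05). Bbc3, which encodes PUMA, had a log2 change of 0.49 and was not called.

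Metabolic and stress targets held the largest median of any list, 1.32, with 20 of 25 tested members higher and 2 lower, Pank1 (-0.42) and Kitl (-0.30). Sulf2, an extracellular heparan sulfate 6-O-endosulfatase, had 125 and 118 CPM in TAD2m, against 3.06 and 3.09 CPM in Vector. Ak1, an adenylate kinase, had 27.7 and 27.3 CPM in TAD2m and 0.56 and 0.92 CPM in Vector. Dcxr, a xylulose reductase, had 26.0 and 25.8 CPM in TAD2m and 1.28 and 2.23 CPM in Vector. The log2 changes of these 3 lay between 3.92 and 5.30, although the Vector levels of Ak1 and Dcxr differed visibly between replicates. Abhd4, a lipase that acts on N-acyl phosphatidylethanolamine, rose by 2.45 ± 0.06, and Ddit4l, an inhibitor of mTORC1, by 2.40 ± 0.13. Tigar, Sesn1 and Gls2, other metabolic targets of p53 in the literature on human or mouse cells, were not called, at -0.06, -0.26 and -0.27.

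The DNA repair list split evenly, with 5 of 10 members higher and 5 lower. Mgmt (3.52), Ercc5 (1.70 ± 0.08), Polk (1.61 ± 0.08), Xpc (0.51 ± 0.09) and Rrm2b (0.35) were higher. Mgmt was at a low level, with a mean of 1.72 CPM in TAD2m and 0.157 CPM in Vector. The lower members included Pcna (-0.84 ± 0.06), Polh (-0.61 ± 0.09), Fancc (-0.49) and Ddb2 (-0.38). Pcna, the sliding clamp of DNA replication, also stands in the S-phase list below.

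Promoters of 764 of the genes that were at least 2-fold higher could be read, from 250 bases before to 50 after the start (RefSeq, GRCm38.p6). They were searched on both strands for the p53 consensus site of 2 decamers, at most 1 base apart, with up to 2 mismatches in all and the central C and G of each decamer kept. A match stood in 21 of these 764 genes (2.75%) and in 7 of 88 genes that were at least 8-fold higher (7.95%). In the p53 lists it stood in 7 of 64 genes (10.9%), and in all 27025 genes of the table in 0.807%. Of the 10284 tested genes found in the table, 0.943% held one. Genes that fell held it too, 3 of 240 that were at least 2-fold lower (1.25%) and 2 of 33 G2/M genes (6.06%). Those 2 were Birc5 (-1.13) and Kif23 (-0.89), and Ckap2 of the arrest list (-0.84) held a match as well. Such a match is a description of the letters and not a shown binding site. The stretches of 4 genes that were higher with TAD2m are printed because they show how the matched letters vary; capitals mark the match, and each runs 5′ to 3′ on the gene's strand. Each printed stretch is the match with 20 bases on either side, and its coordinates are those of the whole stretch. The stretches are chr17:29090908-29090967 (plus strand) for Cdkn1a, chr11:40755442-40755501 (minus strand) for Ccng1, chr10:67912686-67912745 (minus strand) for Zfp365 and chr2:28466375-28466435 (minus strand) for 1700007K13Rik. The match itself begins 51 bases before a RefSeq start in Cdkn1a, 195 in Ccng1, 63 in Zfp365 and 91 in 1700007K13Rik. In Cdkn1a that start lies upstream of the gene span given above, so the match is not next to the start of the counted transcript.
Cdkn1a: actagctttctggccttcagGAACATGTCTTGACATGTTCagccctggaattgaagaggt
Ccng1: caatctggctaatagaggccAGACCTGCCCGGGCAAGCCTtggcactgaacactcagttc
Zfp365: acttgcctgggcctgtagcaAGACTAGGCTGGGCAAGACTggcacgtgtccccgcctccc
1700007K13Rik: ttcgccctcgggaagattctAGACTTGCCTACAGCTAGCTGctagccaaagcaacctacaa

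Among genes with a mean of at least 5 CPM in either group, the largest increases were in genes with almost no reads in Vector. Ces2e, a carboxylesterase (chr8:104926260-104934672), had 41.6 and 41.3 CPM in TAD2m, against 0 and 0.0657 CPM in Vector, which rests on 1152 counts against 1 (ratio 1443, 95% counting interval 258 to 57045). Its neighbour in the family, Ces2f, had 5.75 and 7.26 CPM in TAD2m and 0 and 0.0657 CPM in Vector, and reads of such similar genes may have been split between them. Folds of this kind rest on a denominator near 0, and their intervals are wide. Ano3, a member of the anoctamin family of membrane proteins, had 7.62 and 6.89 CPM in TAD2m and no read in Vector, at least 84.3-fold higher. 1700007K13Rik, whose promoter is printed above, was at least 74.3-fold higher. St14, the membrane protease matriptase, had 7.48 and 6.81 CPM in TAD2m and 1 count over both Vector libraries. Zfp750, which in human skin is a regulator of epidermal differentiation, had 5.47 and 5.62 CPM in TAD2m and 0.0510 and 0.0657 CPM in Vector. Sytl1, an effector of Rab27 in vesicle docking, had 10.8 and 9.81 CPM in TAD2m and 0 and 0.329 CPM in Vector.

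The largest decreases among genes of that level were smaller. Tff3, a trefoil peptide of mucous cells, had 2.29 and 2.47 CPM in TAD2m, against 10.7 and 11.2 CPM in Vector, a change of -2.20 ± 0.19. Aqp1, a water channel, had 13 and 11.4 CPM in TAD2m and 39.1 and 40.1 CPM in Vector. Akr1c19, an aldo-keto reductase, had 12 and 11.4 CPM in TAD2m and 37.7 and 37.4 CPM in Vector. Csrp2, a LIM-domain protein, fell by 1.39 on the log2 scale (45.5 and 45.3 CPM in TAD2m, 121 and 117 CPM in Vector). Ranbp3l had the most negative change of these, -3.01 ± 0.61, and also the widest spread, with 0.83 and 1.27 CPM in TAD2m and 11 and 5.59 CPM in Vector. Cspg4, Smim6, Muc5ac, Matn3, Prex1, Hr and Rad51c completed the 12 lowest, with log2 changes from -1.69 to -1.39.

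Genes of DNA replication and of mitosis were lower with TAD2m almost without exception. Of 46 S-phase genes tested, 45 fell, none rose and the median log2 change was -0.88, against -0.01 for all genes. Mcm5, a subunit of the replicative helicase, had 181 and 184 CPM in TAD2m, against 377 and 391 CPM in Vector. Mcm10, a helicase cofactor, had 36 and 38.0 CPM in TAD2m and 78.5 and 77.8 CPM in Vector. Exo1, an exonuclease of mismatch repair, fell by 1.07 ± 0.07 on the log2 scale. The member that did not pass was Pold1, at -0.67. All 41 G2/M genes tested fell, within a narrow range from -1.26 to -0.89 and with a median of -1.11. Cdc25c, the phosphatase that activates Cdk1, had 16.3 and 17.7 CPM in TAD2m and 41.4 and 39.8 CPM in Vector. Nuf2, a kinetochore subunit, had 29.5 and 29.9 CPM in TAD2m and 72.1 and 66.0 CPM in Vector, and Nusap1, a spindle protein, 40.8 and 38.9 CPM in TAD2m and 95.5 and 89.1 CPM in Vector. The log2 changes of these 3 lay between -1.26 and -1.21. In the same libraries the share of mitochondrial transcripts was higher with TAD2m (3.03% and 3.09%, against 2.36% and 2.24%), and its part in these changes was not tested.

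The promoters of the G2/M genes, a list chosen with earlier results of these data known, often shared letters. The cell-cycle homology region (CHR), read as TTTGAA on either strand, stood in the 300-base promoters of 26 of the 33 G2/M genes found in the table (78.8%), against 20.2% of all 27025 genes, 14.6% of the 10284 tested genes found in the table and 4 of 37 S-phase genes (10.8%). The CCAAT box, read as CCAAT on either strand, also stood in 26 of 33 G2/M genes (78.8%), against 41.1% of all genes, 43.1% of tested genes and 19 of 37 S-phase genes (51.4%). In mammals the CHR is known as the element through which the DREAM and MuvB complexes hold mitotic genes low or switch them on. Of the 240 matched genes that were at least 2-fold lower with TAD2m, 90 held a CHR (37.5%), and of the 764 that were at least 2-fold higher, 102 did (13.4%). The share among the lower genes is not separate from that of the G2/M list, since 36 of its 41 genes were at least 2-fold lower. The stretches of 4 mitotic genes are printed because in each the CHR lies within 30 bases before the start (RefSeq, GRCm38.p6); capitals mark it, and TTCAAA is the same element read on the other strand. They are Cdc20 (chr4:118437344-118437381, minus strand), Prc1 (chr7:80294426-80294471, plus strand), Ube2c (chr2:164769880-164769925, plus strand) and Kif11 (chr19:37376343-37376381, plus strand).
Cdc20: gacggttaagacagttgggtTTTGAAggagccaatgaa
Prc1: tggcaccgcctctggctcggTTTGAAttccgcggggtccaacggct
Ube2c: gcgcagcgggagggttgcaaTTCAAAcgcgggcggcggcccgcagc
Kif11: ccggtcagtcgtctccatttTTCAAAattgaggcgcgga
Their log2 changes were -1.06 for Cdc20, which activates the anaphase-promoting complex, -0.92 for Prc1, a bundler of spindle microtubules, -1.09 for Ube2c, the ubiquitin-conjugating enzyme of mitotic exit, and -1.21 for Kif11, the motor that separates spindle poles.

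**Figure D3:**
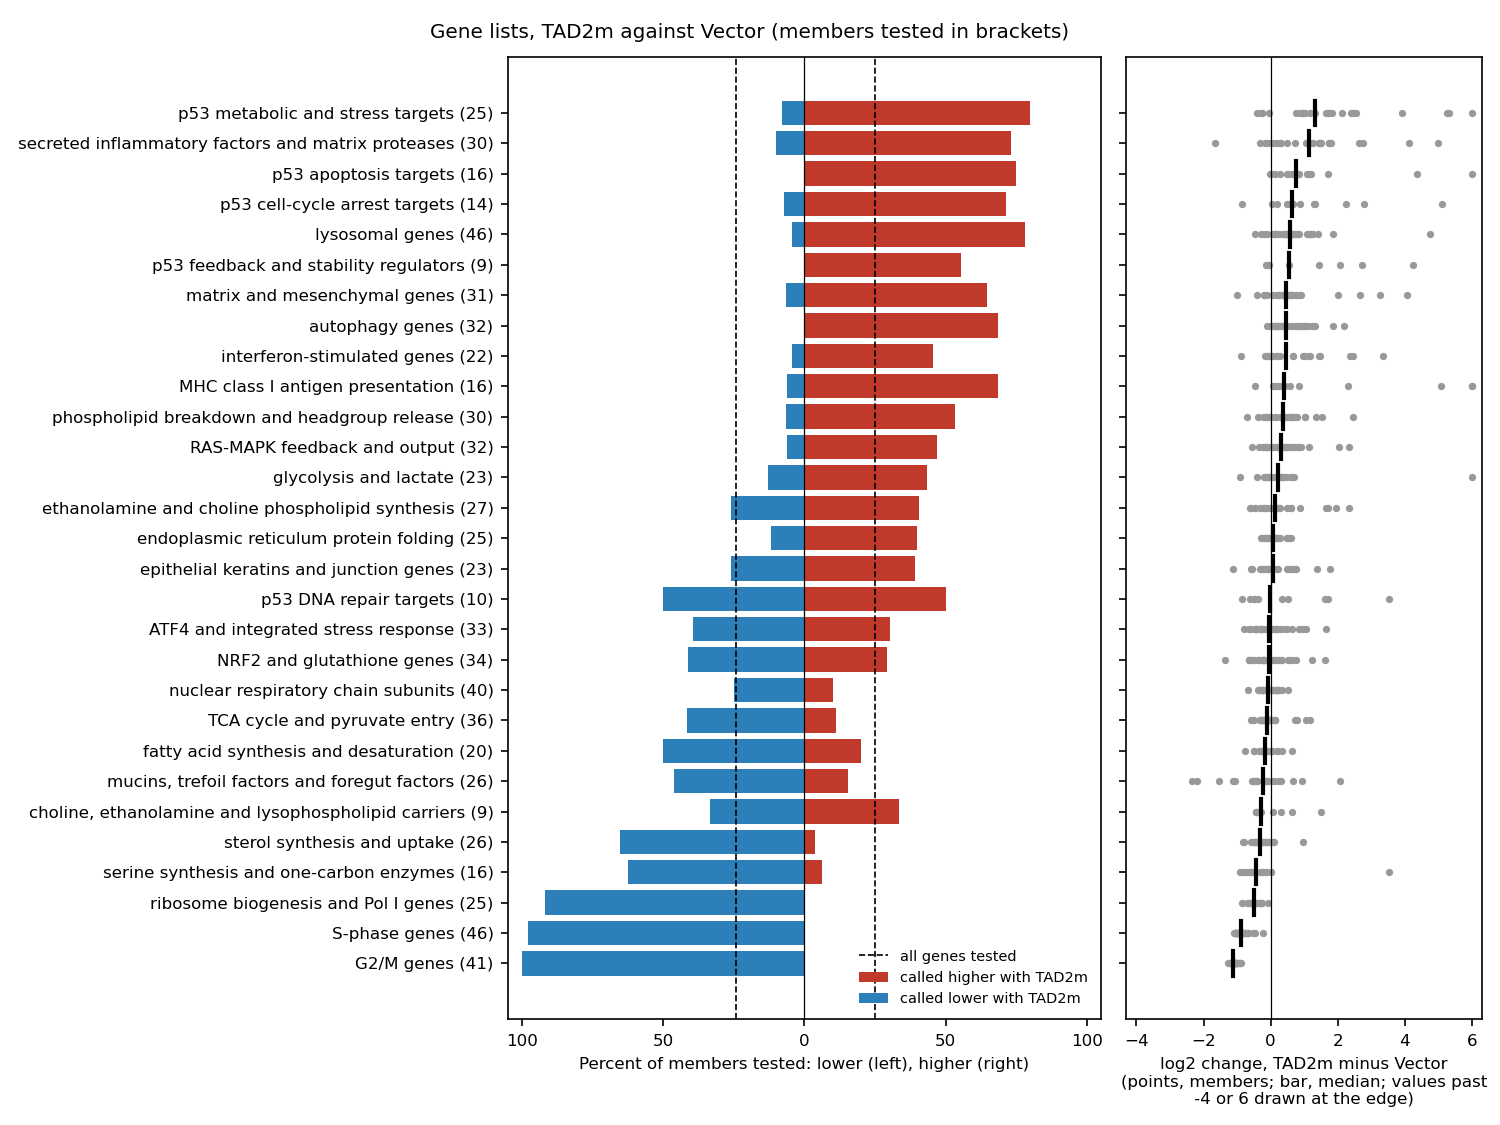
Left, the share of tested members of each of 29 gene lists that was called higher (red, to the right) or lower (blue, to the left) with TAD2m than with Vector, with dashed lines at the shares of all genes tested (24.9% and 24.2%). Right, the log2 change of each member (points) and the list's median (bar); G2/M and S-phase genes lie at the bottom, with medians of -1.11 and -0.88.

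Since the study is about phospholipid headgroups, the enzymes that build and break them down were listed separately. In the synthesis of phosphatidylethanolamine and phosphatidylcholine, 11 of 27 tested members were higher and 7 lower (median 0.14). The number higher dropped to 7 without TAD2m replicate 2 or without Vector replicate 1. Phosphatidylethanolamine is made from ethanolamine through Etnk1, which phosphorylates it, Pcyt2, which makes CDP-ethanolamine, and Selenoi, which transfers the headgroup. Pcyt2 (chr11:120610087-120617936) had 82.2 and 78.5 CPM in TAD2m, against 91.6 and 98.7 CPM in Vector, a change of -0.24 ± 0.08 with adjusted p = 0.014 by edgeR. That call was lost without TAD2m replicate 2 (adjusted p = 0.108) and without Vector replicate 2 (adjusted p = 0.0975). Selenoi had 96.3 and 98.3 CPM in TAD2m and 139 and 131 CPM in Vector, a change of -0.47 ± 0.06. Etnk1 had 169 and 181 CPM in TAD2m and 167 and 164 CPM in Vector and was not called (0.08 ± 0.06). Etnk2, the other ethanolamine kinase, was called higher at a very low level (mean 0.689 CPM in TAD2m, 0.183 CPM in Vector), and Cept1, which also transfers the headgroup, was not called (-0.06 ± 0.07).

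In the choline branch, both the first kinase and the rate-limiting enzyme were higher. Chka, choline kinase alpha, had 406 and 401 CPM in TAD2m, against 268 and 262 CPM in Vector (0.61 ± 0.05). Pcyt1a, which makes CDP-choline, had 285 and 292 CPM in TAD2m and 156 and 161 CPM in Vector (0.87 ± 0.06). Of its exons, 11.8% overlap a gene on the opposite strand. Lpin1, a phosphatidate phosphatase that supplies diacylglycerol and a transcriptional cofactor, had 94.2 and 97.0 CPM in TAD2m and 30.4 and 28.4 CPM in Vector. Pemt, which turns phosphatidylethanolamine into phosphatidylcholine, had 4.09 and 4.27 CPM in TAD2m and 6.43 and 6.51 CPM in Vector (-0.63 ± 0.16).

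Enzymes that cleave phospholipids or release their headgroups were higher more often than lower, 16 against 2 of 30 tested, with a median of 0.38. Abhd4, named above, had 226 and 228 CPM in TAD2m, against 41.4 and 41.5 CPM in Vector. Gdpd5, a glycerophosphodiesterase that frees choline from glycerophosphocholine, had 27.4 and 24.1 CPM in TAD2m and 8.68 and 9.07 CPM in Vector. Sphk1, whose product is cleaved to phosphoethanolamine by the sphingosine-1-phosphate lyase, had 24.3 and 24.6 CPM in TAD2m and 8.83 and 10.3 CPM in Vector. The lyase gene, Sgpl1, was higher as well (0.67), as were the lysosomal enzymes Pld3 (1.02), Smpd1 (0.70), Pla2g15 (0.60) and Plbd2 (0.57). The 2 that fell were Smpd4 (-0.69) and Plaa (-0.24). Carriers of choline, ethanolamine and lysophospholipids split 3 higher and 3 lower of 9 tested. Slc44a2, a choline transporter-like protein, rose by 0.65 ± 0.07, Flvcr1, a choline and ethanolamine importer, fell by 0.45 on the log2 scale, and Mfsd2a, a lysophospholipid carrier, fell by 0.43. Of the exons of Flvcr1, 19.4% overlap a gene on the opposite strand.

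In sterol synthesis and uptake, 17 of 26 tested genes fell and 1 rose, with a median of -0.31. Tmem97, a sterol-regulated membrane protein, had 49.3 and 50.3 CPM in TAD2m, against 83.2 and 88.1 CPM in Vector. Tm7sf2, a sterol reductase, was the member that rose, with 20.3 and 24.9 CPM in TAD2m and 11.4 and 11.4 CPM in Vector. Srebf2 (-0.03) and Insig1 (-0.12) were not called. In fatty acid synthesis and desaturation, 10 of 20 fell and 4 rose (median -0.17). Elovl6, an elongase, had 181 CPM in both TAD2m libraries, against 322 and 295 CPM in Vector, and Fads1, a desaturase, fell by 0.51 on the log2 scale, while Fads3 rose by 0.64 ± 0.06.

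Lysosomal genes were higher in 36 of 46 tested and lower in 2, Ctsc (-0.46) and Ctsh (-0.28), with a median of 0.59. Ctsd, the protease cathepsin D, had 1306 and 1304 CPM in TAD2m, against 368 and 357 CPM in Vector, although 31.5% of its exons overlap another annotated gene on the same strand. Man2b1, lysosomal alpha-mannosidase, had 182 and 190 CPM in TAD2m and 69.4 and 69.0 CPM in Vector. Tpp1, a lysosomal peptidase, rose by 1.27 ± 0.06. Tfe3, which with Tfeb drives lysosomal genes, was higher by 0.24, and Tfeb was not called (-0.12). Autophagy genes were higher in 22 of 32 tested and lower in none (median 0.46). Calcoco1, an autophagy receptor, had 82.0 and 86.9 CPM in TAD2m and 16.8 and 20.4 CPM in Vector. Wipi1, a phosphoinositide-binding autophagy protein, had 37.8 and 36.2 CPM in TAD2m and 10.6 and 9.66 CPM in Vector. Bnip3, a mitophagy receptor, rose by 1.31 ± 0.11, with 28.7% of its exons overlapping a gene on the opposite strand.

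Genes of the integrated stress response did not move as 1 group. Of 33 tested, 10 were higher and 13 lower (median -0.05). Sesn2, which is also a p53 target and a leucine sensor, had 39.6 and 36 CPM in TAD2m, against 11.1 and 13.3 CPM in Vector. Ppp1r15a, the GADD34 phosphatase subunit, rose by 1.05 ± 0.11 and Ddit4, another mTORC1 inhibitor, by 0.96 ± 0.10. The lower members included amino acid carriers, Slc1a5 at -0.79, Slc7a11 at -0.66 and Slc7a5 at -0.64, and Atf4 itself at -0.43. Of 16 serine and one-carbon enzymes, 10 fell and 1 rose (median -0.43). Psat1, a serine synthesis enzyme, had 304 and 316 CPM in TAD2m and 607 and 566 CPM in Vector. Shmt1, which moves carbon from serine to folate, had 47.5 and 43.7 CPM in TAD2m and 86.5 and 83.0 CPM in Vector. The exception was Aldh1l1, a folate dehydrogenase, with 60.2 and 63.6 CPM in TAD2m and 5.56 and 5.06 CPM in Vector; 10.5% of its exons overlap a gene on the opposite strand.

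Folding genes of the endoplasmic reticulum changed little: 10 of 25 were higher and 3 lower, with all members between -0.30 and 0.62, and the number higher was 6 without TAD2m replicate 2. Dnajb9, a co-chaperone, rose by 0.62 ± 0.12. Of 34 NRF2 and glutathione genes, 10 were higher and 14 lower (median -0.06), and the number lower was 9 without TAD2m replicate 1. Osgin1, an oxidative stress-induced growth inhibitor, had 401 and 381 CPM in TAD2m, against 110 and 144 CPM in Vector. Hmox1, heme oxygenase, rose by 1.22 ± 0.07 and Cat, catalase, by 0.75 ± 0.06, whereas Nqo1 (-0.58) and Gclm (-0.60) fell. Ribosome biogenesis and RNA polymerase I genes fell in 23 of 25 tested and rose in none (median -0.49). Dkc1, the pseudouridine synthase of ribosomal RNA, had 104 and 108 CPM in TAD2m and 201 and 184 CPM in Vector, and Ncl, nucleolin, had 1672 and 1768 CPM in TAD2m and 2774 and 2555 CPM in Vector.

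Genes of antigen presentation and of the interferon response were higher in part. Of 16 MHC class I genes, 11 were higher and 1, Psmb10, lower (-0.46), with a median of 0.41. Tap1, the peptide transporter subunit and itself a p53 target (chr17:34187553-34197225), had 13.1 and 12.8 CPM in TAD2m, against 0 and 0.131 CPM in Vector. The counts behind it were 360 against 2 (ratio 225, interval 62.0 to 1869). B2m, the light chain, had 160 and 167 CPM in TAD2m and 90.9 and 89.7 CPM in Vector, and Tapbp, tapasin, rose by 0.56 ± 0.08, with 18.4% of its exons overlapping a gene on the opposite strand. Of 30 interferon-stimulated genes on the list, 22 were tested, 10 were higher and 1, Mx1, lower (-0.88). Mx1 had a mean of 1.00 CPM in TAD2m and 1.84 CPM in Vector. Ifi35 rose by 1.02 ± 0.12, with 17.4% of its exons shared in the same way, Ddx58, the RIG-I sensor, by 0.96 ± 0.17 and Stat2 by 0.67 ± 0.10. Irf1 (0.02) and Irf9 (0.19) were not called, and Isg15, Rsad2 and Usp18 had too few reads to be tested.

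Secreted inflammatory factors and matrix proteases had the second largest median among the lists, 1.13, with 22 of 30 tested higher and 3 lower. The list held 42 genes, and Il6, Il1b, Tnf and Cxcl1 were among the 12 with too few reads to be tested. C3, the central complement component, had 22.3 and 21.8 CPM in TAD2m, against 1.48 and 0.99 CPM in Vector (4.12 ± 0.16). Cxcl16, a membrane-bound chemokine, had 107 and 110 CPM in TAD2m and 30.9 and 34.2 CPM in Vector, with 20.5% of its exons overlapping a gene on the opposite strand. Lif, a cytokine of the interleukin-6 family, had 30.3 and 29.9 CPM in TAD2m and 8.17 and 9.99 CPM in Vector. The lower members were Cxcl10 (-1.65), Cx3cl1 (-0.32) and Il33 (-0.16). Of the immune markers, Cd14, Cd68 and Csf1r were above 1 CPM, with the sums given above, and their part in this list's change was not tested.

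Matrix and adhesion genes were higher in 20 of 31 tested and lower in 2, Col6a2 (-1.01) and Lamc1 (-0.40), with a median of 0.47. Itgb4, the integrin of hemidesmosomes, had 74.3 and 67.5 CPM in TAD2m, against 7.04 and 7.95 CPM in Vector. Thbs1, a secreted matrix protein and inhibitor of angiogenesis, had 391.6 and 372 CPM in TAD2m and 63.2 and 57.6 CPM in Vector. Fn1, fibronectin, had 126 and 124 CPM in TAD2m and 29.96 and 31.6 CPM in Vector. Among RAS-MAPK feedback and output genes, 15 of 32 were higher and 2 lower (median 0.31). Dusp1, a phosphatase of MAP kinases, had 48.1 and 52.0 CPM in TAD2m and 10.3 and 9.47 CPM in Vector, and Spred3 and Ier3 rose by 2.05 ± 0.17 and 1.15 ± 0.08.

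Epithelial genes moved in both directions, 9 higher and 6 lower of 23 tested (median 0.06). The share lower, 26.1%, was near the 24.2% of all genes, and the lowest log2 change was that of Cldn18 (-1.13). Krt7, a ductal keratin, had 563 and 532 CPM in TAD2m, against 155 and 164 CPM in Vector. Jup, plakoglobin, had 215 and 201 CPM in TAD2m and 71.7 and 88.2 CPM in Vector, and Cldn2, a pore-forming claudin, rose by 0.76 ± 0.07. Of 26 mucin, trefoil and foregut genes, 12 were lower and 4 higher (median -0.22). Tff2, a gastric trefoil peptide, had 4.505 and 6.74 CPM in TAD2m and 11.9 and 12.5 CPM in Vector, and Muc5ac, a gel-forming mucin, had 3.12 and 3.37 CPM in TAD2m and 8.88 and 10.1 CPM in Vector. Among the members that rose were Muc4 (2.08), Foxa1 (0.94) and Muc1 (0.21).

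Set directly against wild-type p53, TAD2m differed at few genes. At the same threshold 43 genes were called (0.285% of 15075), 30 higher (0.199%) and 13 lower (0.0862%), while 909 had an unadjusted p under 0.05. Among the 10729 genes with a mean of at least 5 CPM, the 95% interval of the difference lay within 0.5 of 0 on the log2 scale for 9684 genes (90.3%) and wholly beyond it for 8. The median absolute difference was 0.065. Against Vector the same genes gave 5334 within that bound (49.7%), 1569 beyond it and a median absolute difference of 0.289. The number called was sensitive to the libraries: 13 without TAD2m replicate 1, 17 without TAD2m replicate 2, 19 without p53WT replicate 1 and 23 without p53WT replicate 2. In every one of these 4 fits 11 genes remained, 7 of them higher with TAD2m.

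**Figure D4:**
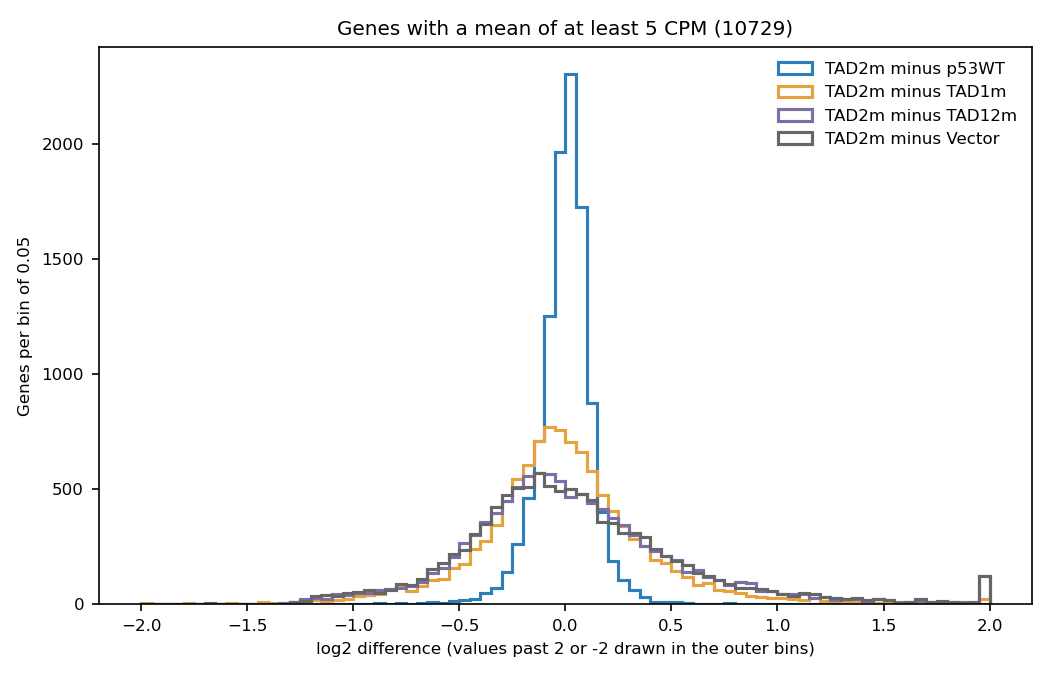
Number of genes by log2 difference between TAD2m and each other KPnull group, for the 10729 genes with a mean of at least 5 CPM, in bins of 0.05. The distribution against p53WT is the narrowest (median absolute difference 0.065), that against TAD1m is wider (0.205), and those against TAD12m (0.278) and Vector (0.289) are the widest; all 4 share the TAD2m libraries.

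Members of the p53 lists were called in both directions between TAD2m and p53WT, Mdm2 and Btg2 lower and Eda2r and Sulf2 higher with TAD2m. Sulf2 had 125 and 118 CPM in TAD2m, against 92.4 and 93.7 CPM in p53WT (0.39 ± 0.06). Its call was lost in every fit that left out 1 library. Mdm2 had 150 and 156 CPM in TAD2m, against 267 and 272 CPM in p53WT, a difference of -0.82 ± 0.06 with adjusted p = 6.4e-06 by edgeR, and it was called in every fit that left out 1 library. Trp53 was itself lower, with 530 and 525 CPM in TAD2m and 649 and 686 CPM in p53WT (-0.34 ± 0.06), but that call was lost in each of the 4 fits. How far the difference in Trp53 bears on the other differences was not tested. Cdkn1a had 299 and 290 CPM in TAD2m, against 401 and 358 CPM in p53WT, a difference of -0.37 ± 0.07 (95% interval -0.52 to -0.21) that was not called at adjusted p = 0.054 by edgeR but was called by DESeq2 (adjusted p = 0.00832). By edgeR it was called with RLE size factors, with no filter on low counts and with only the 4 libraries compared. The adjusted p of those edgeR fits ran from 1.86e-05 to 0.0382. No other alternative fit called Cdkn1a, including those that left out 1 library. Ccng1 differed by -0.25 (95% interval -0.42 to -0.08) and was not called in the main edgeR fit. It was called by edgeR with no filter on low counts (adjusted p = 0.0257) and with only the 4 libraries compared (adjusted p = 0.00378). No other alternative fit called Ccng1. Btg2, with 62.0 and 65.3 CPM in TAD2m and 80.2 and 88.9 CPM in p53WT, was called lower, and in 1 of the 4 fits that left out a library.

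Other genes lower with TAD2m than with p53WT included some of low level. Stox2, a winged-helix protein, had 1.87 CPM in both TAD2m libraries, against 10.3 and 11.7 CPM in p53WT, and no read in TAD1m, TAD12m or Vector. A p53 consensus match begins 154 bases before 1 RefSeq start of the gene, which lies inside the annotated span of Stox2 (chr8:47180048-47413837, minus strand) and so is an internal start. The stretch (chr8:47352463-47352522, minus strand, RefSeq, GRCm38.p6) holds the match in capitals with 20 bases on either side, and is printed because the gene had the most negative difference from p53WT among the genes named.
Stox2: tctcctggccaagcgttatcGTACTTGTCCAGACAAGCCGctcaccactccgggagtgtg
Ckmt1, mitochondrial creatine kinase, had 2.08 and 1.72 CPM in TAD2m, against 8.26 and 8.27 CPM in p53WT. Itgb4 had 74.3 and 67.5 CPM in TAD2m and 121 and 123 CPM in p53WT. Both, like Stox2 and Mdm2, stayed called whichever library was left out. Notch3 (-1.31 ± 0.18) and Sec14l5 (-1.41 ± 0.22) were each called in 2 of those 4 fits, and Celf5 (-0.86 ± 0.13) and the noncoding RNA Gm42047 (-0.46 ± 0.07) in none.

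Among genes higher with TAD2m than with p53WT, Zfp750 stood out, with 5.47 and 5.62 CPM in TAD2m, against 0.38 and 0.82 CPM in p53WT (3.22 ± 0.29). It was at 0.116 and 0.0634 CPM in TAD1m and at 0.0527 and 0.164 CPM in TAD12m, so TAD2m was the highest of the 5 groups. C3 had 22.3 and 21.8 CPM in TAD2m and 7.33 and 8.20 CPM in p53WT (1.51 ± 0.12). Cxcl5, a chemokine for neutrophils, had 380 and 402 CPM in TAD2m and 227 and 224 CPM in p53WT (0.80 ± 0.07). These 3, Gas6, a ligand of TAM receptors (0.92 ± 0.11), and Clca3b (0.96 ± 0.12) stayed called in all 4 fits that left out 1 library. Robo3, an axon guidance receptor with 2.56 and 2.70 CPM in TAD2m and 0.25 and 0.27 CPM in p53WT, and Arhgef33, with 2.56 and 2.92 CPM in TAD2m and no read in p53WT, were the other 2 that did. Eda2r (1.19 ± 0.22) and Cxcl2 (0.77 ± 0.14) were called in none of those fits, and Add2 (1.03 ± 0.17) in 1.

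**Figure D5:**
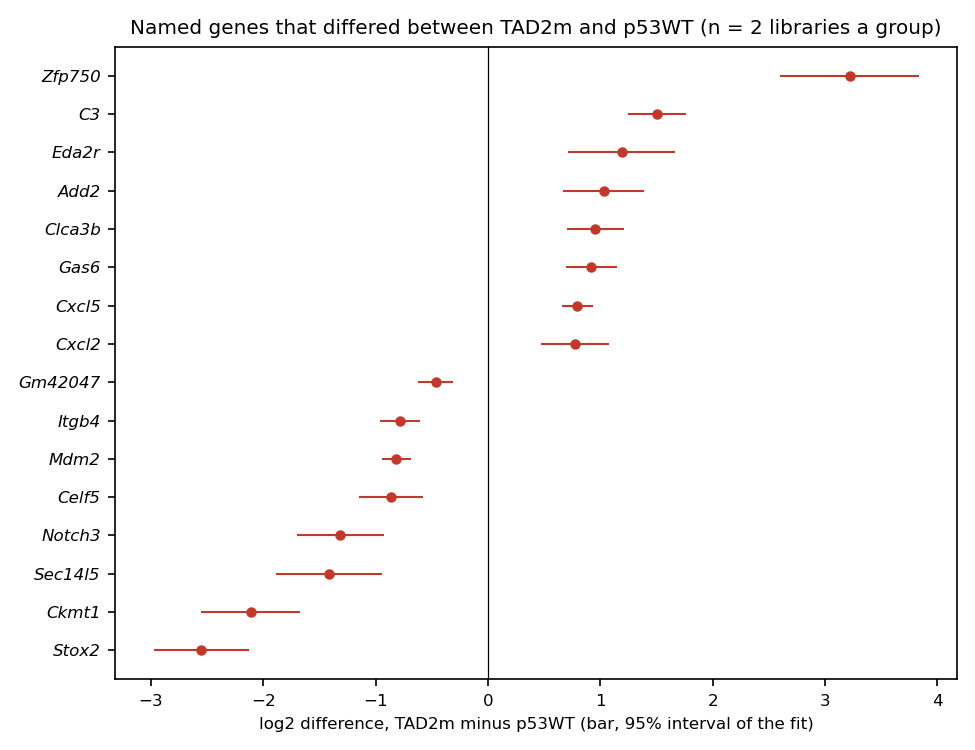
Log2 difference, TAD2m minus p53WT, with its 95% interval, for the 8 highest and 8 lowest called genes with at least 5 CPM in either group and no overlap between libraries. Zfp750 lies highest at 3.22 and Stox2 lowest at -2.55.

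By list, 21 of the 29 lists had no member called between TAD2m and p53WT, and each list's median difference lay between -0.16 and 0.06. With 0.285% of all genes called, lists of this size would mostly hold no call. No S-phase and no G2/M gene was called, with median differences of 0.03 and 0.05. Nusap1, for example, had 40.8 and 38.9 CPM in TAD2m and 38.3 and 38.6 CPM in p53WT. Pcyt2, Selenoi and Lpin1 differed by 0.03, 0.02 and 0.06, with 95% intervals that all lay between -0.13 and 0.20. The secreted factors held the most calls, 5 higher of 30 tested, where 30 of 15075 genes (0.199%) were higher overall. Besides C3 and Cxcl5 they were Ccl20 (247 and 265 CPM in TAD2m, 202 and 194 CPM in p53WT), Cxcl3 (64.4 and 70.0 CPM in TAD2m, 54.1 and 47.0 CPM in p53WT) and Cxcl2 (9.42 and 8.98 CPM in TAD2m, 5.57 and 5.19 CPM in p53WT). Ccl20 stayed called in 2 and Cxcl3 in 1 of the 4 fits that left out 1 library.

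Against TAD1m, TAD2m differed at 5359 genes (35.5%), 2622 higher (17.4%) and 2737 lower (18.2%). Cdkn1a had 299 and 290 CPM in TAD2m, against 54.4 and 52.5 CPM in TAD1m, a difference of 2.46 ± 0.08. Mdm2 (0.94 ± 0.06) and Ccng1 (0.84 ± 0.08) were higher too. Trp53 itself was lower, with 530 and 525 CPM in TAD2m and 622 and 654 CPM in TAD1m (-0.28 ± 0.06, adjusted p = 0.00242 by edgeR), a call lost without TAD1m replicate 2 (adjusted p = 0.0506). All 41 G2/M genes and 44 of 46 S-phase genes were lower with TAD2m than with TAD1m, with medians of -0.90 and -0.71. Some p53 targets went the other way: 4 of 16 apoptosis genes and 8 of 25 metabolic targets were lower with TAD2m than with TAD1m, where 10 and 14 were higher. Sulf2 had 125 and 118 CPM in TAD2m and 153 and 158 CPM in TAD1m, and Apaf1 had 66.8 and 65.8 CPM in TAD2m and 114 and 113 CPM in TAD1m. Sterol genes were higher in 14 of 26 and lower in 3, so this list had opposite signs against TAD1m (median 0.27) and against Vector (-0.31).

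The largest differences from TAD1m were in both directions. Ano3 had 7.62 and 6.89 CPM in TAD2m and no read in TAD1m, at least 80.1-fold higher. Zfp750 (154 counts in TAD2m, 3 in TAD1m), Ndnf, a secreted neurotrophic factor (3.90 ± 0.21), Gm29233 (3.53 ± 0.20), Pdzk1ip1 (3.28 ± 0.24) and Celf5 (3.27 ± 0.21) followed. Of the exons of Celf5, 12.4% overlap a gene on the opposite strand. Of the exons of Gm29233, 66.6% overlap those of Thbs1 on the opposite strand, and Thbs1 itself was higher by 3.13 ± 0.08, so their reads cannot be told apart. On the other side, Dram1, a lysosomal p53 target that promotes autophagy in human cells, had 1.80 and 1.27 CPM in TAD2m, against 14 and 12.1 CPM in TAD1m. Add2, an adducin of the membrane skeleton, had 7.07 and 6.14 CPM in TAD2m and 33.9 and 30.1 CPM in TAD1m. Ntn1, netrin 1, had 2.84 and 2.70 CPM in TAD2m and 14 and 17 CPM in TAD1m. Chrm1 (-2.99 ± 0.24), Kcnj4 (-2.91 ± 0.24) and Zcchc24 (-2.37 ± 0.23) were also among the 6 lowest.

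Against TAD12m, TAD2m differed at 7312 genes (48.5%), 3737 higher (24.8%) and 3575 lower (23.7%). Trp53 had 530 and 525 CPM in TAD2m and 552 and 580 CPM in TAD12m and was not called (-0.10 ± 0.06, 95% interval -0.23 to 0.03). Cdkn1a had 299 and 290 CPM in TAD2m, against 32.6 CPM in both TAD12m libraries (3.17 ± 0.09). Ces2e had no read in TAD12m and was at least 516-fold higher with TAD2m, and Ano3, also without a read there, at least 90.4-fold. Ces2f, 1700007K13Rik, Eda2r and Sytl1 were the others among the 6 highest, each with 0.164 CPM or less in every TAD12m library. Among the 6 lowest were Ranbp3l (-3.82 ± 0.56), Aqp1 (-1.91 ± 0.11), Thsd7a (-1.82 ± 0.22), Akr1c19 (-1.80 ± 0.09) and Tff3 (-1.77 ± 0.20). All 41 G2/M genes and 45 of 46 S-phase genes were lower with TAD2m than with TAD12m. The comparisons with Vector, p53WT, TAD1m and TAD12m share the TAD2m libraries, so their values stand side by side here and no overlap between them is given.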

How the data were processed

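RNA was extracted with TRIzol and made into stranded poly(A)-selected libraries, per the labels' protocols. The authors deposited expected counts per gene in steps of 0.5, without normalization. STAR 2.6.1c, HOMER and the mm10 build are named, per the submitters' processing notes, and per the file headers HOMER counted exon reads of GENCODE vM25 on both strands, with 1 transcript kept per gene. Reads of overlapping genes on opposite strands are therefore pooled although the kit keeps strand. In each library 18.5% to 19.9% of values ended in 0.5; they were rounded upward, which changed no total by more than 0.0375%. The 10 KPnull libraries were all taken as treated with doxycycline, per the labels' growth protocol, although the series design also mentions untreated cells.

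Genes passing edgeR's filterByExpr (15075) were scaled by TMM (factors 0.979 to 1.016) and tested with edgeR's quasi-likelihood test, robust, over all 10 KPnull libraries (edgeR 4.0.16, limma 3.58.1, R 4.3.3), with 5 residual degrees of freedom, a biological coefficient of variation of 0.0548 and Benjamini-Hochberg adjustment over all genes tested. Calls were made below an adjusted p of 0.05. CPM refer to the scaled library size. Where a group had no read, the fold is a bound against 3 counts over its 2 libraries; with 1 to 3 counts the ratio has an exact 95% interval. Intervals and floors cover counting error only.

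The lists and the genes described were chosen with earlier results of these data known. The naming rule took 9 core genes, up to 3 called members of each list (6 for p53 lists) with the largest change and a mean of at least 5 CPM, and the 12 highest and 12 lowest changes against Vector (8 and 8 against p53WT, 6 and 6 against the other forms). Some genes that the rule named are not reported here. Other members, named to identify small counts, unchanged regulators or printed promoters, were chosen after their values were seen. Exon overlaps were read from GENCODE vM21 on mm10, in which 167 of 168 genes were matched. Alternatives covered RLE size factors, filters, rounding, the robust setting, DESeq2 1.42.0, a replicate block, only the 4 libraries compared, and leaving out each library. The fit was also run on simulated counts that had the same spread in every gene and group. That run cannot show how a spread that differs between groups, as between TAD2m and Vector here, affects the calls.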

Additional observations from a re-analysis of the deposited data

How the results depend on the processing

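The count of genes called between TAD2m and Vector, 7409, ran from 5877 (DESeq2) to 7416 (counts rounded down) under the alternatives that kept all libraries, and from 5761 to 6883 when 1 library was left out. Against p53WT the 43 calls became 107 with no filter on low counts, 99 with only the 4 libraries compared and 13 to 23 when 1 library was left out; all 43 were among the 107 and among the 99. Leaving out 1 library gave 3744 to 3909 calls against TAD1m (5359) and 5594 to 7019 against TAD12m (7312). No named gene changed sign under an alternative run. The median against Vector, -0.01, became 0.0046 with RLE or DESeq2 and 0.0094 without Vector replicate 2. The split against TAD1m, 2622 higher and 2737 lower, turned to 2764 and 2557 with RLE and 2086 and 1905 with DESeq2. It became 3655 and 3382 with only the 4 libraries compared and 2798 and 2668 with no filter on low counts. Higher genes also outnumbered lower ones in every fit that left out a TAD2m or TAD1m library. With the filter at 1 CPM in 2 libraries, the split was 3647 higher and 3690 lower against Vector, and 3628 and 3629 against TAD12m. Of the 145 named genes, Dram1, Gm42047, Mfsd2a, Pemt, Thsd7a, Chrm1 and Pcyt2 lost the call against Vector under at least 1 alternative.

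Counts of list members that moved by over 1.5 times were mostly small. With DESeq2, the members lower were 4 of phospholipid synthesis, 9 of the TCA cycle, 0 of the interferon list and 1 of the secreted factors; with no filter, 7 respiratory subunits were higher. When 1 library was left out, the members higher ran from 7 to 10 for phospholipid synthesis, 6 to 9 for endoplasmic reticulum folding and 2 to 3 for respiratory subunits. The members lower then ran from 5 to 7 for phospholipid synthesis, 6 to 12 for the TCA cycle, 0 to 1 for the interferon list and for MHC class I, 1 to 2 for secreted factors, lysosomal genes and endoplasmic reticulum folding, 1 to 3 for phospholipid breakdown and for glycolysis, 9 to 14 for NRF2 and 2 to 4 for matrix genes. The cause was not tested, beyond there being fewer samples when a library is left out.

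The labels do not say that replicate numbers pair the libraries. Same-numbered deviations from the group means correlated at -0.36 between TAD2m and Vector, 0.21 between TAD2m and p53WT, -0.09 between TAD2m and TAD1m, and -0.36 between TAD2m and TAD12m, and over the other pairs of groups from -0.46 to 0.62 (Vector and TAD12m). A fit with the replicate number as a block called 7327 genes against Vector, 37 against p53WT, 5295 against TAD1m and 7214 against TAD12m, and changed no call of a named gene. With the numbers crossed, an alternative chosen after seeing the data, 7106 genes were called against Vector. With 2 libraries a group and few reads, small differences may be missed, and a gene that was not called is not shown to be equal.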

Other observations

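Genes of energy metabolism were not described above. Of 23 glycolysis and lactate genes tested, 10 were higher and 3 lower with TAD2m than with Vector (median log2 change 0.21). Slc16a1, the lactate carrier MCT1, had 210 and 214 CPM in TAD2m, against 418 and 386 CPM in Vector (-0.92 ± 0.06), while Pfkfb3, an activator of glycolytic flux, rose by 0.71 ± 0.09 and Aldoc, an aldolase, by 0.64 ± 0.15. The largest change of the list was that of Ldhb, a lactate dehydrogenase subunit, with a mean of 1.22 CPM in TAD2m and no read in Vector. In the TCA cycle and pyruvate entry, 15 of 36 were lower and 4 higher (median -0.11); the number lower was 6 without TAD2m replicate 1 and 7 without Vector replicate 1. The 4 that rose were Pcx, pyruvate carboxylase (1.18 ± 0.10), and 3 kinases that inhibit pyruvate dehydrogenase, Pdk2 (1.07 ± 0.17), Pdk1 (0.77 ± 0.08) and Pdk4 (0.72), whereas the fourth such kinase, Pdk3, fell (-0.59). Of 40 nuclear subunits of the respiratory chain, 10 were lower and 4 higher (median -0.07). Ndufa5 and Uqcrb fell by 0.67 and 0.38 on the log2 scale, and Ndufa1 rose by 0.51 ± 0.11. The shares called, 25% lower and 10% higher, compare with 24.2% and 24.9% of all genes.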
